A study of Mus musculus with 12 samples.

Results

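The comparison set mouse iPS (induced pluripotent stem) cells derived with human Nanog (hNanog iPS) against those derived with mouse Nanog (mNanog iPS), on 3 arrays per group. These 6 arrays belong to a series of 12, whose other groups are embryonic stem (ES) cells and Nanog-null neural stem (NS) cells. Of the 45281 probes on the bead array, 15124 were tested, namely those whose detection p-value was below 0.01 on 3 or more of these 6. Of these, 13117 carried 1 gene symbol, for 8625 genes, 5 carried several and 2002 were unnamed here.

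Nanog is a homeodomain transcription factor that, with Pou5f1 (Oct4) and Sox2, holds mouse pluripotent cells in self-renewal. In reprogramming, exogenous transcription factors return a somatic cell to this state, and Nanog is known for its role in the last steps. The human protein is an ortholog of the mouse protein, and the comparison asks how cells made with each form differ in gene expression.

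The mNanog iPS, hNanog iPS and ES cells were grown in serum-free N2B27 with LIF, the GSK3 inhibitor CHIR99021 at 3 µM and the MEK inhibitor PD0325901 at 1 µM, a medium that holds mouse cells in naive pluripotency. The sources used here do not give the growth of the NS cells, the cells that were reprogrammed, the vectors or any further factors. Every group was labelled with the strain E14Tg2A (129), which is an ES cell line of the mouse. The labels do not say whether the replicates are separate clones, separate cultures or repeats of a single RNA. The p-values therefore measure only the spread between these samples, and the form of Nanog and the clone cannot be told apart.

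The iPS arrays had mean signals of 319.04 to 519.1 and detected 13654 to 15974 probes. They fell into brighter and dimmer arrays, with 1 brighter array in mNanog iPS and 2 in hNanog iPS. Levels correlated across probes, which are not independent replicates, at 0.987 to 0.992 within mNanog iPS, 0.991 to 0.996 within hNanog iPS and 0.970 to 0.979 between the groups. The iPS label was checked against markers. All 10 pluripotency markers were detected on every iPS array, and their summed linear level was 75600 to 79630 in mNanog iPS, 71590 to 76320 in hNanog iPS and 1144 to 1167 in NS. Of 9 neural stem markers with a probe, Olig1, Olig2, Fabp7, Slc1a3, Ptprz1, Bcan and Ednrb were detected on no iPS array.

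A pair of measurements set the mNanog iPS arrays apart from the hNanog iPS and ES arrays. Fibroblast markers were above background in mNanog iPS. Of the 4 with a probe (Col1a1, Col3a1, Thy1 and Dcn), 3 to 4 were detected on each mNanog iPS array, 0 to 1 on each hNanog iPS array, none on ES arrays and 1 on each NS array. Their summed level was 700.4 to 900.0 in mNanog iPS, 91.85 to 106.6 in hNanog iPS, 88.76 to 95.45 in ES and 122.9 to 138.3 in NS. In such bulk samples, fewer cells of a type and less RNA per cell cannot be told apart. Hprt, the purine salvage enzyme, was also above background there, and E14Tg2a is known as an Hprt-deficient line. On the log2 scale, its mNanog iPS arrays read 8.64, 8.61 and 8.51 and its hNanog iPS arrays 4.92, 5.07 and 4.55. It was detected on all 3 mNanog iPS and all 3 NS arrays, and on no hNanog iPS or ES array. The part of what the fibroblast markers and Hprt show in the results below was not tested, and since all 3 mNanog iPS arrays share them, no comparison could be made without these arrays.

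Between the iPS groups, 2503 probes (16.5%) passed an adjusted p of 0.05 (limma, Benjamini-Hochberg), of which 1205 (7.97%) were higher in hNanog iPS and 1298 (8.58%) lower. At an unadjusted p under 0.05 the count was 4486, and the groups did not overlap for 35.9% of probes. The changes were mostly small. The median change of all tested probes was 0.03 on the log2 scale, the median size of a called change was 0.55 and the smallest 0.23. Changes of 2-fold or more were found for 421 probes (2.78%), 124 (0.82%) higher and 297 (1.96%) lower, and changes of 4-fold or more for 96. The larger changes were thus mostly falls in hNanog iPS. On all 3 hNanog iPS arrays and no mNanog iPS array, 75 probes were detected, and 133 on all 3 mNanog iPS arrays and no hNanog iPS array.

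The number of calls moved with single arrays and with array brightness. The count of higher probes was 772 without hNanog iPS replicate 1 and 784 without hNanog iPS replicate 2. With brightness as a block, 3085 probes passed, 1824 in the brighter arrays alone and 659 in the dimmer arrays alone. With cyclic loess in place of quantile normalization, 849 probes were higher and 1419 lower, so that 37.4% of calls were higher, against 48.1%. When each array was scaled to its median, 346 probes passed, all by 2-fold or more. Many of the smaller changes named below lost their call in the dimmer arrays alone and under median scaling. They are named with their values, and where leaving out a single array ended a call, this is said.

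**Figure D1:**
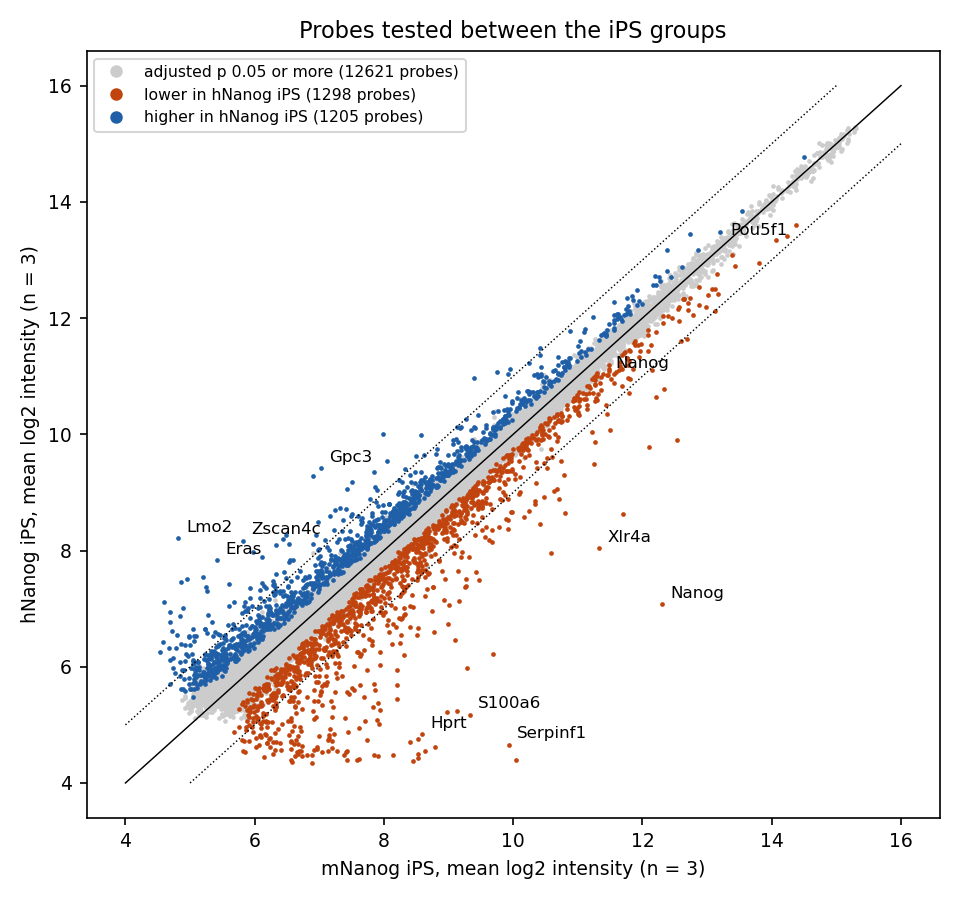
Mean log2 intensity of the 15124 tested probes in mNanog iPS (horizontal axis, n = 3) and hNanog iPS (vertical axis, n = 3). Blue points are the 1205 probes higher in hNanog iPS, orange points the 1298 lower, grey points the rest; the solid line marks equal levels and the dotted lines a 2-fold change. Most points far from the line lie below it.

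The array holds 2 probes for Nanog, and their changes differed in size. At ILMN_1245732 the mNanog iPS arrays read log2 intensities of 12.22, 12.17 and 12.54, and the hNanog iPS arrays 7.22, 7.14 and 6.87. The probe was thus high on every mNanog iPS array, near its ES level of 11.61 ± 0.087 (SD, n = 3), and low but detected on every hNanog iPS array, with no overlap. The change was -5.23 (SE 0.12, adjusted p = 4.9e-11), or 37.6-fold lower in hNanog iPS, and it passed in all 23 alternative settings. At ILMN_2706623 the mNanog iPS arrays read 11.21, 11.49 and 11.67, the hNanog iPS arrays 11.07, 11.04 and 10.98, and ES 13.04 ± 0.18. The iPS groups lay close together here and did not overlap, with a change of -0.43 (SE 0.13, adjusted p = 0.040). The second call was lost in 13 of 23 settings. Among them were the fits without mNanog iPS replicates 2 and 3 (adjusted p = 0.111 and 0.125) and without hNanog iPS replicates 1, 2 and 3 (0.0854, 0.0976 and 0.104). Neither probe was detected on an NS array. Probe sequences were not used here, so no signal is assigned to introduced or endogenous Nanog, and which probe can read human Nanog was not tested.

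**Figure D2:**
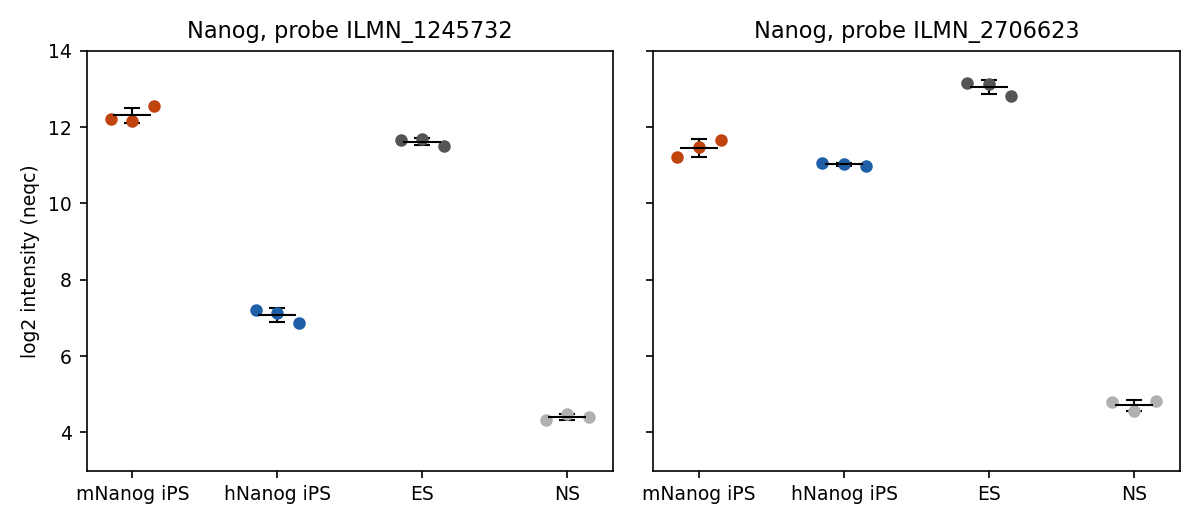
Log2 intensity of both Nanog probes on each of the 12 arrays, by group; points are arrays, the horizontal bar is the group mean and the whiskers are 1 SD (n = 3). At the left probe hNanog iPS lies near 7.08 and mNanog iPS near 12.31, while at the right probe they lie near 11.03 and 11.46.

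The mouse Nanog promoter is shown because its composite octamer and Sox element is the known landing site of Pou5f1 and Sox2, which were at similar levels in both groups. The window (RefSeq, GRCm38.p6, chr6:122707315-122707614, plus strand) runs from 250 bases before the start of the gene to 50 bases after it. This element, searched on both strands and printed in capitals, occurs in it a single time, 151 bases before the start, and in 8 of 32851 promoter windows of the same length (0.0244%).
Nanog: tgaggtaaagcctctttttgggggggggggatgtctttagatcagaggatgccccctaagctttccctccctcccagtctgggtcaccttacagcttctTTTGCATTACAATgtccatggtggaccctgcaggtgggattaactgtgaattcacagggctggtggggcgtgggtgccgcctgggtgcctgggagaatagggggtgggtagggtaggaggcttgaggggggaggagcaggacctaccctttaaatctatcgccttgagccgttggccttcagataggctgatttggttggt

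The other reprogramming factors did not pass the test. Pou5f1 lay at 13.13, 13.23 and 13.33 in mNanog iPS against 13.41, 13.36 and 13.17 in hNanog iPS, overlapping levels with a change of 0.09 (SE 0.11, adjusted p = 0.66), which was -0.011 in the dimmer arrays alone. Sox2 lay at 9.65, 9.46 and 9.37 against 9.51, 9.28 and 9.32, with a change of -0.13 (SE 0.092, adjusted p = 0.41). Its sign turned with median scaling (0.17) and in the brighter arrays alone (0.024). The zinc finger factor Klf4 gave 0.42 (SE 0.20, adjusted p = 0.19) at its brightest probe, and -0.19 and -0.12 at its other probes. Myc was not detected on enough iPS arrays to be tested.

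The pluripotency lists moved little, with 11.8% of core and 18.8% of naive genes called, against 16.5% of all probes. Of 17 tested core pluripotency genes, 2 fell and none rose (median -0.12), namely Nanog, read at ILMN_2706623, and Dnmt3l, which assists the enzymes that set new DNA methylation. The count was 1 without mNanog iPS replicate 2 or 3 or any single hNanog iPS array, when the Nanog call was lost. Dnmt3l lay at 12.34, 12.34 and 12.30 in mNanog iPS against 10.80, 10.71 and 10.85 in hNanog iPS, without overlap and above its ES level of 9.33 in both groups. Its change was -1.54 (SE 0.10, adjusted p = 3.8e-07), and its other probe gave -1.57. Of 16 naive pluripotency genes, 3 fell and none rose (median -0.10), all by small amounts. Klf5, a Krüppel-like factor that supports naive self-renewal, fell by 0.45 (SE 0.083), and Manba and Tcl1 by 0.33 and 0.29. Further probes of Manba and Tcl1 gave -0.19 and -0.22 and did not pass (adjusted p = 0.19 and 0.082). Manba and Tcl1 each lost their call without any of 5 single arrays, so that the list's count fell to 1 without any mNanog iPS replicate or hNanog iPS replicate 3. Of 4 tested primed epiblast genes (25% called), Otx2, a homeodomain factor of the formative and primed epiblast, rose by 0.93 (SE 0.16, adjusted p = 0.0017). It was detected on 1 mNanog iPS array and all 3 hNanog iPS arrays, with an ES level of 8.31 above both.

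Genes downstream of the signals that the medium sets were also read. LIF acts through the kinase Jak and the factor Stat3, the GSK3 inhibitor releases the Wnt effector beta-catenin, and the MEK inhibitor blocks ERK. Of 20 LIF receptor and STAT3 genes, 2 rose and 6 fell (median -0.25). Socs3, the feedback inhibitor of this pathway, fell by 0.72 (SE 0.092, adjusted p = 0.00015), from 11.18, 11.19 and 11.08 to 10.34, 10.39 and 10.56. Sgk1, a kinase of the serum and glucocorticoid response, rose by 0.71 (SE 0.11). The count of rises was 1 without mNanog iPS replicate 1 or 3 or hNanog iPS replicate 2 or 3. Of 12 ERK targets, 1 rose and 5 fell (median -0.32), among them Phlda1 (-1.52), the Ets factor Etv4 (-0.99), the AP-1 subunit Fos (-0.89) and Ier3 (-0.79). The riser was the cyclin Ccnd1 (0.34), whose call was lost without any single array but hNanog iPS replicate 2, and whose other probes gave 0.19 and 0.16. Of 11 immediate early genes, which include Fos and Ier3, 1 rose and 6 fell (median -0.34). Dusp1, a phosphatase of MAP kinases, fell by 1.42 (SE 0.11, adjusted p = 1.7e-06) from 11.60, 11.42 and 11.47 to 10.23, 10.02 and 9.98. The list's count of falls was 4 without mNanog iPS replicate 1 or 2 or hNanog iPS replicate 1. Of 8 Wnt targets, 2 rose and 2 fell: Notum, a secreted Wnt inhibitor, fell by 1.04 at its brightest probe and by 0.88 and 0.76 at the others, while Tcf7l1, a repressor of the pathway, rose by 0.42. The count of rises was 1 without mNanog iPS replicate 1 or 2 or hNanog iPS replicate 1 or 3. The other Tcf7l1 probe gave 0.46 and was not called. Id2, the other Wnt target that fell, was detected on no hNanog iPS array and entered the test only because mNanog iPS detected it. The called share was 40% for LIF receptor and STAT3 genes, 50% for ERK targets and 50% for Wnt targets. It was 63.6% for immediate early genes, against 16.5% of all probes.

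Genes of the Nodal, TGF-beta and BMP pathways changed in both directions. Of 17 Nodal, TGF-beta and BMP genes, 3 rose and 1 fell (median -0.08), a called share of 23.5% against 16.5% of all probes. Lefty1 and Lefty2, secreted Nodal inhibitors, rose by 0.66 (SE 0.10, adjusted p = 0.00083) and 0.49 (SE 0.10, adjusted p = 0.0062). Lefty1 lay at 7.30, 7.37 and 7.07 in mNanog iPS against 8.07, 7.73 and 7.92 in hNanog iPS, and both groups were below the ES level of 8.96. Tgfbi, a matrix protein, rose by 0.43, a call lost without each of mNanog iPS replicates 1 and 3 and hNanog iPS replicates 1, 2 and 3. Its other probe gave 0.37 and did not pass (adjusted p = 0.37). Id2, an inhibitor of basic helix-loop-helix factors, was at least 1.49-fold lower in hNanog iPS. It was detected on no hNanog iPS array and entered the test only because mNanog iPS detected it. Of 9 Notch genes, the receptor Notch3 (0.77, SE 0.11) and the effector Hey1 (0.63, SE 0.13) rose and none fell, a called share of 22.2%.

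The largest falls in hNanog iPS were in genes of connective tissue. For a gene detected on no array of a group, the fold is a lower bound, since the mean of the bright group is set against the lowest detected signal of each array, or the gene's own signal where that is higher. Serpinf1, a secreted serpin also called PEDF, lay at 10.07, 9.94 and 9.78 in mNanog iPS against 4.71, 4.75 and 4.52 in hNanog iPS. It was thus bright on each mNanog iPS array and not above background on any hNanog iPS or ES array, at least 21.4-fold lower in hNanog iPS (adjusted p = 4.9e-11). Timp3 and Timp2, inhibitors of matrix metalloproteinases, were at least 9.66-fold and 8.69-fold lower. S100a6, a calcium-binding protein of mesenchymal and other cells, was at 9.29, 9.38 and 9.32 against 5.27, 4.90 and 5.36, at least 14.1-fold lower. Lox, the enzyme that cross-links collagen, was at 8.37, 8.52 and 8.43 against 4.39, 4.37 and 4.38, at least 7.61-fold lower. The small proteoglycans Dcn (decorin) and Bgn (biglycan) were at least 8.04-fold and 10.96-fold lower, and the secreted protein C1qtnf3 at least 8.09-fold. At further probes C1qtnf3 changed by -2.68 and was at least 1.55-fold lower.

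The remaining 4 of the 12 largest falls were Nanog, Hprt (at least 8.41-fold, adjusted p = 1.0e-09), Gadd45g and Trim50. Gadd45g, a stress-induced growth regulator, was at least 7.43-fold lower in hNanog iPS, and at least 1.24-fold at its other probe. The ubiquitin ligase Trim50 fell by 3.88 (SE 0.13), with 9.02, 9.06 and 9.30 against 5.56, 5.24 and 4.94, and was detected on 1 hNanog iPS array. Among the 12, 10 were detected on no hNanog iPS array and 10 on no ES array, while 5 were detected on all NS arrays. Those 5 were Serpinf1, Timp2, Timp3, Hprt and Gadd45g, and Timp3 was brighter there (10.49) than in mNanog iPS.

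**Figure D3:**
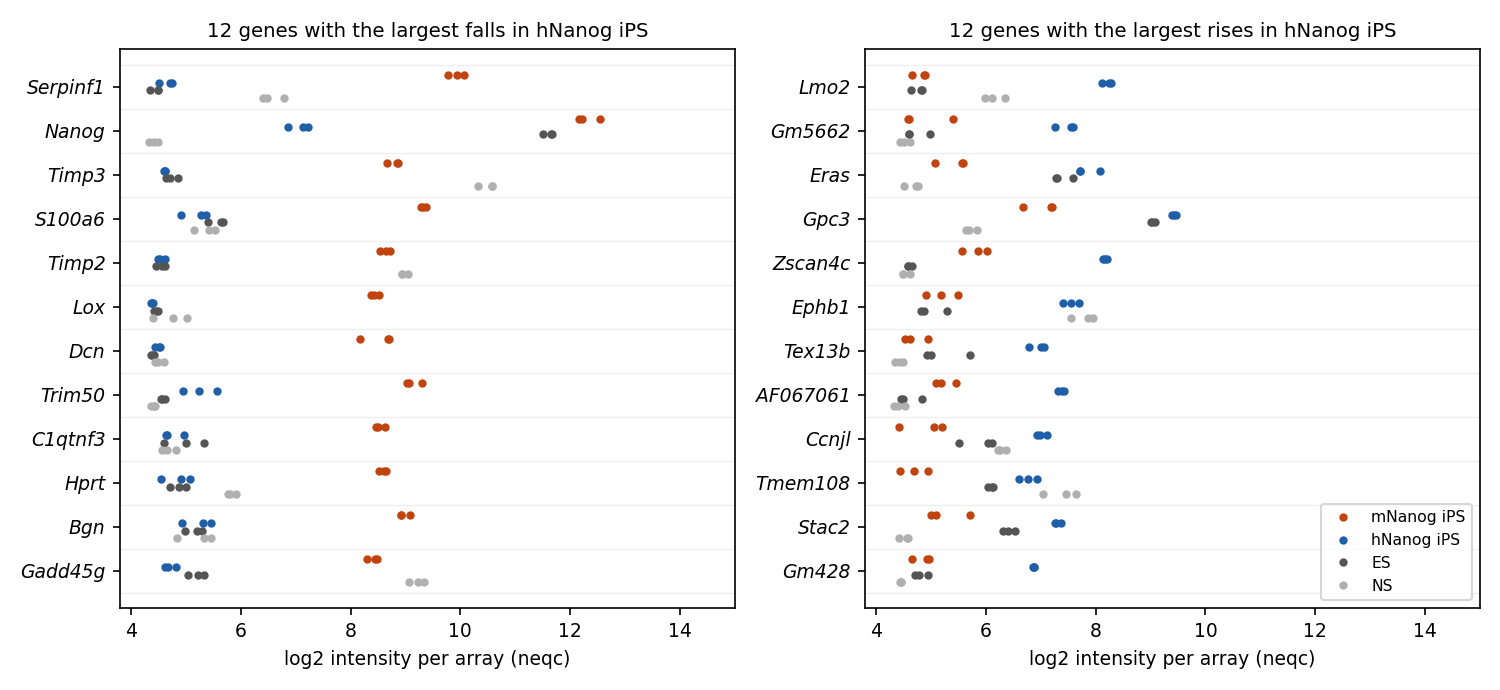
Log2 intensity on each of the 12 arrays for the 12 genes with the largest falls (left) and the 12 with the largest rises (right) in hNanog iPS, 1 row per gene and 1 point per array. On the left the mNanog iPS points stand apart above hNanog iPS for every gene, and ES points lie with hNanog iPS except at Nanog; on the right hNanog iPS points stand above mNanog iPS.

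The wider matrix and mesenchymal lists showed the same side. Of 29 tested extracellular matrix genes, 19 fell and 1 rose (median -1.33, against 0.03 for all probes), and 15 of the falls were 2-fold or more. The called share was 69%, against 16.5% of all probes. Col1a1, the main fibrillar collagen chain, lay at 8.07, 8.13 and 8.23 in mNanog iPS against 4.56, 4.41 and 4.46 in hNanog iPS, at least 6.18-fold lower and not detected in ES or NS. Further falls included the microfibrillar collagen Col6a1 (at least 3.78-fold lower), the basement membrane collagens Col4a1 (-2.53, on 2 hNanog iPS arrays) and Col4a2 (-1.67, on 1), the cross-linking enzyme Loxl1 (-2.12) and the collagen chaperone Serpinh1 (-1.82). The riser was Fbln1 (fibulin 1), at 0.42, of whose 5 probes 2 were called; at the probe read for the list the call was lost without mNanog iPS replicate 3 or hNanog iPS replicate 2. Sparc, a matrix protein bright in all 4 groups, gave -0.03 (adjusted p = 0.89) and -0.27 (0.096) at its probes. Leaving out any single iPS array gave 17 to 18 falls, and the dimmer arrays alone gave 16. Among the 19, 11 were detected on no ES array and 12 on all NS arrays. On no hNanog iPS array were 7 of the 19 detected. Those 7 entered the test only because mNanog iPS detected them, so 19 of 29 does not describe the whole list. Col4a1, Col4a2 and Mmp2, detected on 2, 1 and 2 hNanog iPS arrays, also needed mNanog iPS arrays to be tested. The summed level of the 4 fibroblast markers, which share Col1a1 and Dcn with this list, was 700.4 to 900.0 in mNanog iPS and 91.85 to 106.6 in hNanog iPS, and their part in the falls was not tested.

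Of 26 mesenchymal and contractile genes, 11 fell, all by 2-fold or more, and 1 rose (median -0.37). The called share was 46.2%, against 16.5% of all probes. On no hNanog iPS array were 5 of the 11 detected. Those 5 entered the test only because mNanog iPS detected them, so 11 of 26 does not describe the whole list. Thy1, detected on 1 hNanog iPS array, also needed mNanog iPS arrays to be tested. Cav1, the coat protein of caveolae, was at least 4.29-fold lower in hNanog iPS, the hyaluronan receptor Cd44 at least 3.06-fold and the smooth muscle actin Acta2 at least 2.72-fold. Cd44 was at least 1.58-fold lower at its other probe. Anxa2, Anxa3 and the galectin Lgals1 changed by -2.32, -2.15 and -1.77 and were detected on every iPS and ES array. Vim (vimentin), the intermediate filament of mesenchymal cells, lay at 10.27, 10.25 and 10.19 in mNanog iPS against 8.66, 8.62 and 8.77 in hNanog iPS and 10.26 in ES. It fell by 1.55 (SE 0.083, adjusted p = 6.4e-08), and here ES lay with mNanog iPS. The transcription factors of epithelial-mesenchymal transition did not pass: Snai1 gave 0.25 (adjusted p = 0.31) and Twist1 -0.48 (0.52). Tpm2, a tropomyosin, rose by 0.54, a call lost without mNanog iPS replicates 1 and 3 and hNanog iPS replicate 3. With the same fibroblast markers moving beside it, the count of falls was 11 to 13 without any single iPS array and 11 in the dimmer arrays alone.

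The list holds a pair of genes known as targets of YAP and its DNA partner TEAD, and both were lower in hNanog iPS. A part of YAP or TEAD in their falls was not tested, nor was that of the fibroblast markers. Ccn2, a secreted matrix-associated protein, lay at 10.67, 10.63 and 10.74 in mNanog iPS and between 8.99 and 9.17 in hNanog iPS, a change of -1.62 (SE 0.25, adjusted p = 0.00075) and of -1.50 at its other probe. Its ES level of 10.10 lay between the groups. Ankrd1, a nuclear protein of muscle and stretched cells, was at 7.31, 7.03 and 7.09 against 4.62, 4.77 and 5.08, at least 3.09-fold lower, and not above background in ES or NS. Its promoter is shown for the core letters of the TEAD motif, GGAATG, in capitals. They were searched on both strands and occur 210 and 123 bases before the start, on the strand of the gene, and in 14.7% of all windows of this length (RefSeq, GRCm38.p6, chr19:36119795-36120094, minus strand).
Ankrd1: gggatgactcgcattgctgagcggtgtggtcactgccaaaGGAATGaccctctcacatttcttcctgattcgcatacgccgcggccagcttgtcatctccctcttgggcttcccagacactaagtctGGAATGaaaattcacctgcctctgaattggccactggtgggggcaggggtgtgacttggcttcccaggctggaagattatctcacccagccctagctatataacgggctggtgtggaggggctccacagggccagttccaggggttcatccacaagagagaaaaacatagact

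**Figure D4:**
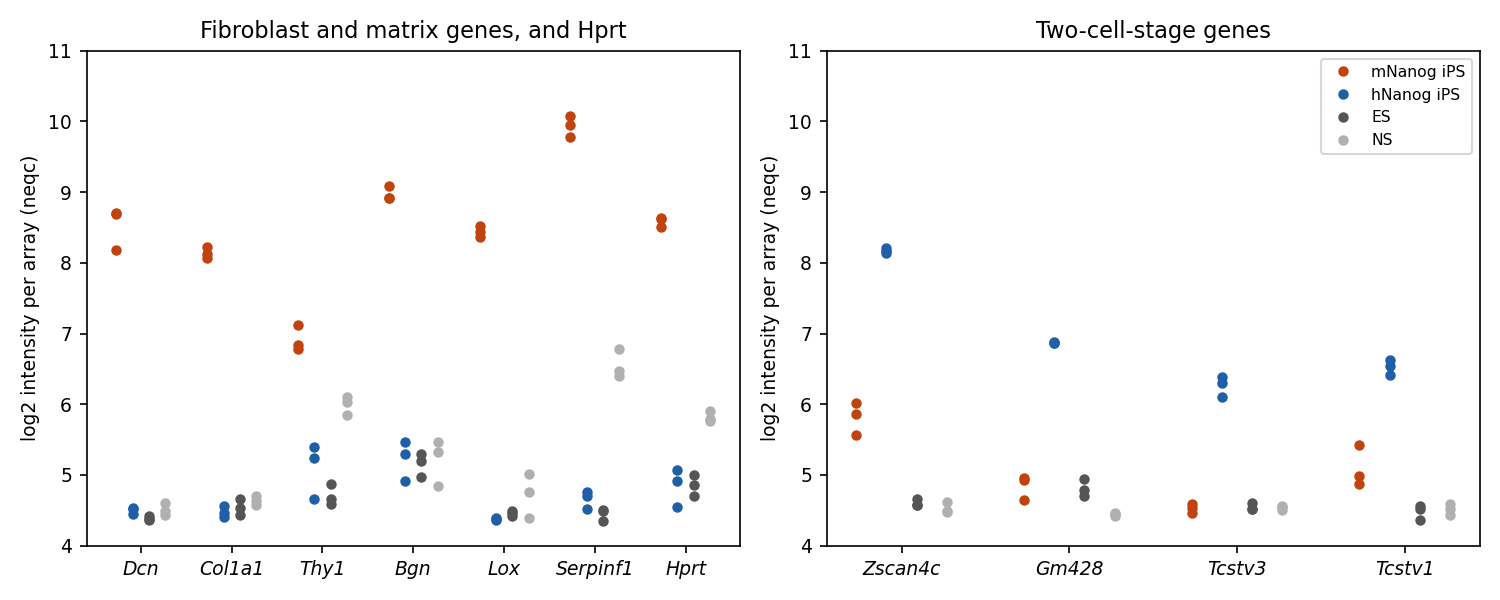
Log2 intensity per array of 6 fibroblast and matrix genes and Hprt (left) and of the 4 genes of the 2-cell stage that rose (right), in the 4 groups; each point is 1 array. On the left the mNanog iPS arrays lie at 6.78 or higher and apart from every other group for all of Dcn, Col1a1, Thy1, Bgn, Lox, Serpinf1 and Hprt. On the right no array outside hNanog iPS lies above 6.02 and no hNanog iPS array below 6.10.

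Neural stem and glial genes fell in part. Of 12 tested, 6 fell and none rose at the probe read (median -0.51), a called share of 50% against 16.5% of all probes. Another probe of Nfib, a tested member not called, rose by 0.39. Ptn (pleiotrophin), a heparin-binding growth factor, lay at 7.95, 7.86 and 7.89 in mNanog iPS against 4.46, 4.41 and 4.51 in hNanog iPS and 14.43 in NS, at least 5.23-fold lower in hNanog iPS. Sox9, a factor of glia, cartilage and other lineages, was at least 2.32-fold lower, and the cyclin Ccnd2 at least 3.20-fold, or 2.12-fold at its other probe. None of these 3 was detected in ES or on any hNanog iPS array. They entered the test only because mNanog iPS detected them, so 6 of 12 does not describe the whole list. Egfr, detected on 2 hNanog iPS arrays, also needed mNanog iPS arrays to be tested. Sox21, a factor of progenitors that ES cells also express, fell by 1.58 (SE 0.093, adjusted p = 1.5e-07), from 10.19, 10.13 and 10.17 to 8.55, 8.60 and 8.60. Beside these falls, the summed level of the 9 neural stem markers was 299.9 to 312.7 in mNanog iPS, 233.8 to 242.2 in hNanog iPS and 80360 to 88020 in NS, and 7 of the 9, named above, were at background on every iPS array. Of 12 neuronal genes, 2 rose and 3 fell (median -0.01), a called share of 41.7%. The neurofilament Nefm fell by 2.03 at its brightest probe, changed by -1.86 at another and was at least 2.28-fold lower at the other, Dpysl3 fell by 0.68 at the probe read, and the reticulon Rtn1 rose by 0.41. The count of rises was 1 without hNanog iPS replicate 1 or 3.

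Other lineage lists held few tested genes. The called share was 57.1% for trophectoderm, 33.3% for primitive endoderm, 50% for mesoderm and 41.7% for epithelial junction genes. Over all probes it was 16.5%. Of 7 trophectoderm genes, 3 fell and 1 rose (median -0.29). Tfap2a and Tfap2c, AP-2 factors of trophoblast, surface ectoderm and germ cells, fell by 1.72 (SE 0.15) and 1.40 (SE 0.090). The other Tfap2c probes gave -1.40 (called) and -0.61 (adjusted p = 0.068, not called). Tfap2c lay at 9.97, 9.92 and 9.88 in mNanog iPS against 8.36, 8.54 and 8.66 in hNanog iPS, both below its ES level of 11.31. The receptor Fgfr2 fell by 0.65, and the T-box factor Eomes rose by 0.60 near background, a call lost without mNanog iPS replicate 2 or hNanog iPS replicate 2. Of 9 primitive endoderm genes, the collagens Col4a1 and Col4a2 fell and the adaptor Dab2 rose by 0.68 (SE 0.14, median of the list -0.09). Of 4 mesoderm genes, Eomes rose and Gsc fell by 0.53 (median -0.01). Of 12 epithelial junction genes, 4 fell and 1 rose (median -0.14). Grhl2, an epithelial transcription factor, fell by 1.11 (SE 0.090) from 10.43, 10.46 and 10.69 to 9.39, 9.43 and 9.42, with ES lower than both at 6.28. The protease St14 fell by 0.83 and the tight junction protein Cldn3 rose by 0.63. That list's count of falls was 2 without hNanog iPS replicate 1. E-cadherin (Cdh1) gave 0.01 at its brightest probe and did not pass.

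The largest rises in hNanog iPS were smaller than the largest falls. Lmo2, a LIM-domain regulator of blood and vessel formation, lay at 4.66, 4.88 and 4.87 in mNanog iPS against 8.25, 8.27 and 8.11 in hNanog iPS. It was detected on all hNanog iPS and NS arrays and on no mNanog iPS or ES array, at least 6.03-fold higher in hNanog iPS (adjusted p = 8.9e-10). Eras, a Ras protein of ES cells, lay at 5.08, 5.59 and 5.57 against 8.07, 7.71 and 7.72, a rise of 2.43 (SE 0.15, adjusted p = 3.2e-07). It was detected on 1 mNanog iPS array and on every hNanog iPS and ES array, with an ES level of 7.38 ± 0.18 (SD, n = 3). Gpc3 (glypican 3), a cell surface heparan sulfate proteoglycan, lay at 6.68, 7.20 and 7.19 against 9.46, 9.38 and 9.42, a rise of 2.40 (SE 0.12) at one probe and 2.02 (SE 0.074) at the other. For Eras and Gpc3, hNanog iPS thus lay near ES and mNanog iPS below it.

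Further large rises were Ephb1, an ephrin receptor, by 2.35 (SE 0.17), and Stac2, an SH3-domain protein, by 2.04 (SE 0.15), each detected on 1 mNanog iPS array. Not detected on any mNanog iPS array were Gm5662 (at least 3.60-fold higher), AF067061 (3.39-fold), Ccnjl (2.62-fold), Tex13b (2.51-fold) and Tmem108 (2.21-fold). Of the 12 genes with the largest rises, 6 were detected on no ES array and 4 on all 3.

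The remaining genes among the 12, Zscan4c and Gm428, are on the list of 2-cell-stage genes. Whether others of the 12 belong to that stage was not tested. Zscan4c and its relatives mark a rare, transient state of mouse pluripotent cells in which transcripts of the 2-cell embryo appear, and Zscan4 proteins are known for a role in telomere upkeep. Of 8 listed genes with a probe, 5 were tested, of which 4 rose and none fell (median 1.73, or 0.91 with genes off in mNanog iPS at their lower bound). The called share was 80%, against 16.5% of all probes. Zscan4c lay at 5.57, 5.86 and 6.02 in mNanog iPS against 8.16, 8.21 and 8.14 in hNanog iPS, a rise of 2.35 (SE 0.11, adjusted p = 1.5e-08). It was detected on 2 mNanog iPS arrays and on no ES or NS array. Gm428 lay at 4.94, 4.65 and 4.96 against 6.86, 6.88 and 6.87, at least 2.38-fold higher (adjusted p = 2.3e-08). Tcstv1 and Tcstv3, 2-cell-stage genes of a shared family, lay at 6.54, 6.41 and 6.63 and at 6.10, 6.30 and 6.38 in hNanog iPS, at least 1.88-fold and 1.56-fold higher. All 3 were detected on every hNanog iPS array and on no array of another group. They entered the test only because hNanog iPS detected them, so 4 of 5 does not describe the whole list. Zscan4c, detected on 2 mNanog iPS arrays, also needed hNanog iPS arrays to be tested. Eif1a, the fifth tested gene, gave -0.20 (adjusted p = 0.18) and lay in a family whose copies share sequence, as do Zscan4c and the Tcstv genes. All 4 calls were kept in each of the 22 alternative settings that tested them.

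The promoters of Zscan4c and Gm428 are printed because these genes rose together. In capitals are the letters TATAAA, a core of the TATA box, which were searched on both strands and found in 13.6% of all windows of this length. They occur 54 bases before the start of Zscan4c (RefSeq, GRCm38.p6, chr7:11005495-11005794, plus strand). In Gm428 they occur on the strand of the gene, 32 bases before the start, and on the opposite strand, in a match that overlaps it and begins 34 bases before the start (RefSeq, GRCm38.p6, chr4:73683264-73683563, plus strand).
Zscan4c: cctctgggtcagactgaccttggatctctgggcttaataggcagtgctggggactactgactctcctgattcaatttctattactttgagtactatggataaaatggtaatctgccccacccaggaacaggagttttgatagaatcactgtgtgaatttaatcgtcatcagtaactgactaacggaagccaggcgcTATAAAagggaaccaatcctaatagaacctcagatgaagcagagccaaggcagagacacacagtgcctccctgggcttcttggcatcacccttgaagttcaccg
Gm428: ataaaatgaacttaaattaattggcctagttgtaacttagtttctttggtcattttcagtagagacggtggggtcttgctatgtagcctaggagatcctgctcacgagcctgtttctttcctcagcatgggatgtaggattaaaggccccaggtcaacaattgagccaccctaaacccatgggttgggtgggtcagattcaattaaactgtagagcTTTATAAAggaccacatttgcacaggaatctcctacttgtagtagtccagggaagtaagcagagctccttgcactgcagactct

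Genes that DNA methylation is known to hold silent moved in both directions. Of 10 germline genes, 3 rose and 4 fell (median -0.20), a called share of 70% against 16.5% of all probes. Xlr4a, an X-linked gene of the Xlr cluster, lay at 11.41, 11.30 and 11.28 in mNanog iPS against 7.95, 8.08 and 8.09 in hNanog iPS and 6.85 in ES, a fall of 3.29 (SE 0.082, adjusted p = 9.1e-11). The tubulin Tuba3a fell by 0.94 at its brightest probe and the homeobox gene Rhox5 by 0.77. The germ cell RNA-binding protein Dazl and the meiotic cohesin subunits Rec8 and Stag3 rose by 0.56, 0.45 and 0.72, and the count of rises was 2 without any mNanog iPS replicate or hNanog iPS replicate 2 or 3 and 1 without hNanog iPS replicate 1. Of 21 imprinted genes, which are expressed from a single parental allele, 4 rose and 6 fell (median 0.00). The called share was 47.6%. Dcn and Dlk1, among the falls, were detected on no hNanog iPS array. Both entered the test only because mNanog iPS detected them, so 6 of 21 does not describe the whole list. The falls included Dcn, the Notch-related ligand Dlk1 (at least 3.06-fold lower), Mest (-1.25 at both probes) and the growth factor Igf2 (7.30 ± 0.077 against 8.31 ± 0.062, SD, n = 3). Phlda2 and Grb10, growth-restraining genes expressed from the maternal allele, rose by 0.92 and 0.88.

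Of 15 genes of the DNA methylation machinery, 1 rose and 4 fell (median -0.11). Uhrf2, a reader of hydroxymethylcytosine, rose by 0.99 (SE 0.092) at its brightest probe and by 0.87 and 0.93 at others, and was at least 1.91-fold higher at a probe detected on no mNanog iPS array. Beside Dnmt3l, the falls were Gadd45g, Gadd45a (-0.65) and the methyl-binding protein Mbd2 (-0.53). Gadd45g was detected on no hNanog iPS array and entered the test only because mNanog iPS detected it. The methyltransferases Dnmt1 and Dnmt3b and the dioxygenase Tet1 gave 0.16, -0.27 and -0.03 and did not pass. Of 25 Polycomb subunits, 2 fell and none rose at the probe read (median -0.07), Pcgf5 by 0.53 and Pcgf1 by 0.27. Pcgf1 lost its call without any single array and turned to 0.033 under median scaling. At probes not read for the list, Mtf2 rose by 0.46 and 0.46 and Kdm2b by 0.44, while Phc1 changed by -0.40, all called. Of 6 Lin28 and let-7 genes, the exonuclease Dis3l2 rose by 0.70 (SE 0.096) and none fell. The called share was 33.3% for the methylation machinery, 8% for Polycomb and 16.7% for Lin28 and let-7 genes. It was 50% for sex-linked genes, against 16.5% of all probes. Of 2 tested sex-linked genes, the Y-linked Eif2s3y fell by 1.18 (SE 0.15), from 9.28, 9.66 and 9.79 to 8.43, 8.47 and 8.29, and the Y-linked Uty gave -0.35 and did not pass.

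Housekeeping and metabolic lists differed in how many members passed. The called share was 33.3% for cholesterol and fatty acid synthesis and 28.6% for DNA replication and mitosis. It was 3.77% for cytosolic ribosomal proteins and 3.57% for the respiratory chain, against 16.5% of all probes. Of 24 cholesterol and fatty acid synthesis genes, 8 rose and none fell (median 0.25). Dhcr7, the last enzyme of cholesterol synthesis, lay at 6.97, 7.06 and 6.93 in mNanog iPS against 7.98, 7.91 and 8.12 in hNanog iPS, a rise of 1.02 (SE 0.081, adjusted p = 2.2e-06). The desaturase Scd1 rose by 0.64, the farnesyl pyrophosphate synthase Fdps by 0.53 and 1.13 at its probes, and Insig1, a sterol sensor, by 0.52, a call lost without mNanog iPS replicate 2 or hNanog iPS replicate 1 or 2. The other Insig1 probes gave 0.65 (called) and -0.21 (not called). Of 42 DNA replication and mitosis genes, 12 rose and none fell (median 0.23). The anaphase activator Cdc20 rose by 0.58 to 0.67 at its 4 probes, the origin licensing factor Cdc6 by 0.59 and the checkpoint protein Bub1b by 0.55. The count was 7 without mNanog iPS replicate 2 or hNanog iPS replicate 1, 8 without hNanog iPS replicate 2 and 0 in the dimmer arrays alone. Of 53 cytosolic ribosomal proteins, 2 rose (Rpl4 by 0.43 and Rplp0 by 0.39) and none fell (median 0.02), and of 56 respiratory chain genes, 2 rose and none fell (median 0.10). Ndufs7 and Atp5c1, the risers among the latter, rose by 0.28 and 0.29, and the count was 0 without any single hNanog iPS array and 1 without mNanog iPS replicate 1 or 2.

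Of 22 glycolysis and pentose phosphate genes, 1 rose and 2 fell (median -0.08), a called share of 13.6% against 16.5% of all probes. The glucose transporter Slc2a1 fell by 1.04 (SE 0.10, adjusted p = 1.3e-05), Eno3 fell by 0.62, a call lost without hNanog iPS replicate 1 or 3, and the neuronal enolase Eno2 rose by 1.27 (SE 0.17). Of 17 hypoxia targets, 1 rose and 3 fell (median -0.20), a called share of 23.5%. The adenylate kinase Ak4 lay at 9.29, 9.51 and 9.63 in mNanog iPS against 7.43, 7.59 and 7.46 in hNanog iPS, a fall of 1.98 (SE 0.17), against 9.89 in ES. Ndrg1 fell by 1.42 and 1.41 at its probes, and the prolyl hydroxylase Egln3 was at least 1.40-fold higher, a call lost without mNanog iPS replicate 2 or hNanog iPS replicate 1. Egln3 was detected on no mNanog iPS array and entered the test only because hNanog iPS detected it. Of 22 ATF4 and amino acid response genes, 5 rose and 6 fell (median -0.02), a called share of 50%. The arginine transporter Slc7a3 (0.69) rose, as did the serine synthesis enzymes Phgdh (0.53) and Psat1 (0.49), while the lipoprotein receptor Vldlr (-1.40), Cebpb (-0.68) and Atf5 (-0.62) fell. The count of rises was 2 without hNanog iPS replicate 1, and the count of falls 4 without mNanog iPS replicate 2 or hNanog iPS replicate 2.

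Of 27 heat shock and oxidative stress genes, 4 fell and none rose (median -0.07), led by the glutathione enzymes Gpx2 (-0.80) and Gstm1 (-0.79). The called share was 14.8% in this list and 15.8% among p53 genes, near the 16.5% of all probes. Of 19 p53 genes, 3 fell and none rose (median -0.05): Bbc3 by 0.44, Ccng1 by 0.40 and Cdkn2a by 0.38. The other probes of Ccng1 both gave 0.09 and did not pass (adjusted p = 0.63 and 0.52), while those of Cdkn2a gave -0.32 (not called) and -1.18 (called). Without single iPS arrays between 0 and 2 of the p53 genes passed, 0 of them without mNanog iPS replicate 1 and 1 without any single hNanog iPS array. Of 17 interferon and antigen presentation genes, 8 rose and 2 fell (median 0.29), a called share of 58.8%. Ifitm3, an interferon-induced membrane protein of germ cells and pluripotent cells, lay at 10.92, 10.79 and 10.92 in mNanog iPS against 11.74, 11.86 and 11.72 in hNanog iPS, a rise of 0.90 (SE 0.086, adjusted p = 1.2e-05), both below its ES level of 12.75. Its neighbours in the family, Ifitm1 and Ifitm2, rose by 0.55 and 0.45. Ifi27 fell by 1.12 (SE 0.083). The count of rises was 4 without any mNanog iPS replicate or hNanog iPS replicate 1 and 5 without hNanog iPS replicate 2. The count of falls was 1 without any mNanog iPS replicate or hNanog iPS replicate 3.

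**Figure D5:**
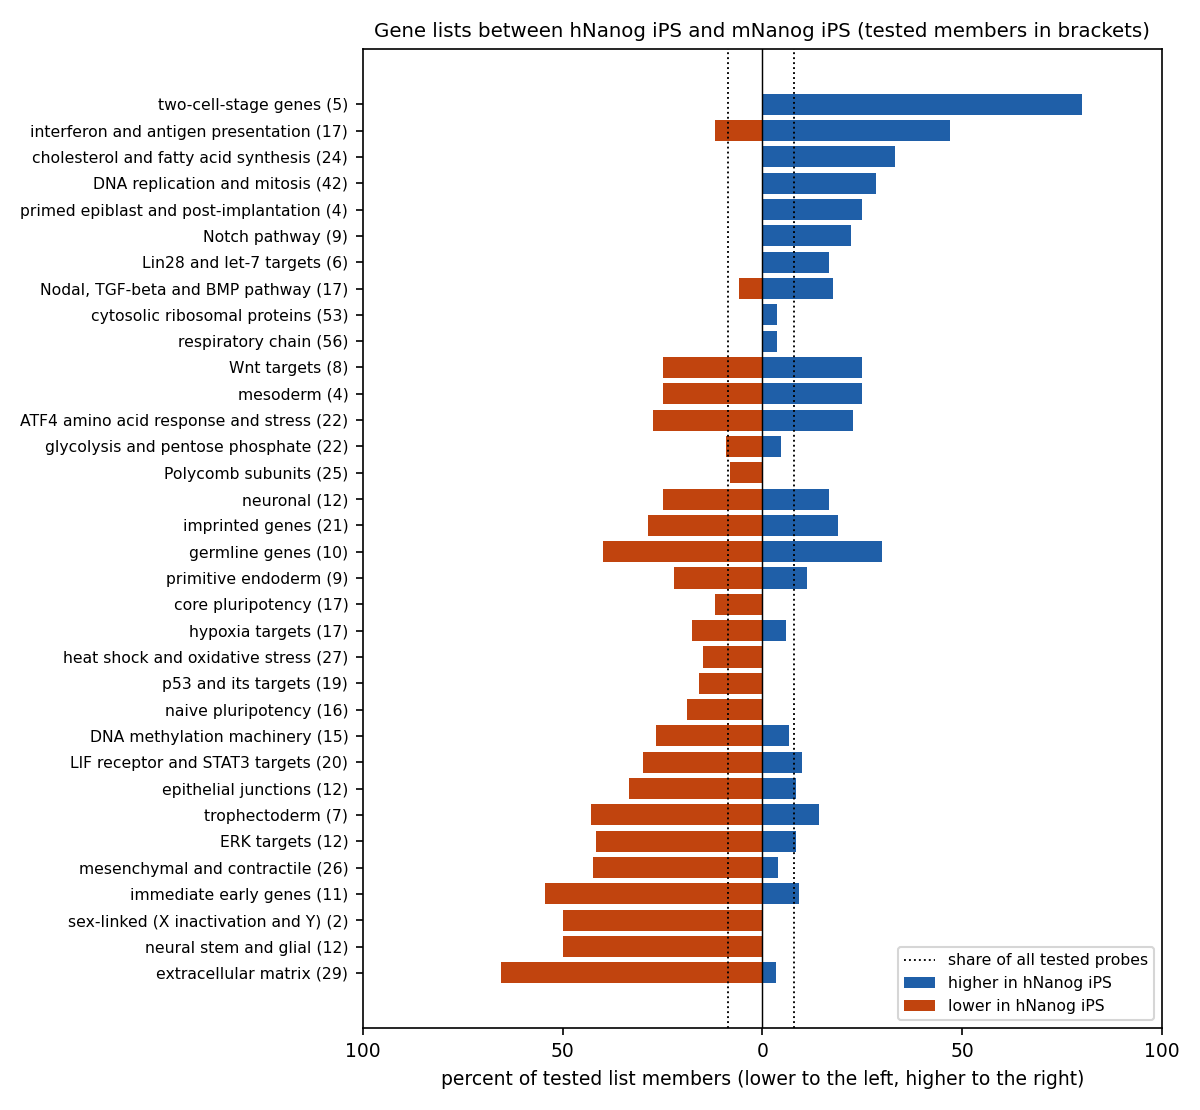
Percent of the tested members of each of 34 gene lists that were called higher (to the right) or lower (to the left) in hNanog iPS, with the number tested in brackets; dotted lines mark the share of all tested probes, 7.97% higher and 8.58% lower. Extracellular matrix has 19 of 29 members lower, and 2-cell-stage genes have 4 of 5 higher. In both lists some members passed the detection filter through a single iPS group.

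The levels in ES, which are not part of the contrast although the ES arrays shared its normalization and its estimate of the spread, were set beside the changed probes. Of the 297 probes 2-fold or more lower in hNanog iPS, the ES mean lay nearer to hNanog iPS for 245 (82.5%) and nearer to mNanog iPS for 52. Of the 124 higher, it lay nearer to hNanog iPS for 51 (41.1%) and nearer to mNanog iPS for 73. On no ES array were 116 of the 297 lower probes detected, and 136 on all 3; of the 124 higher probes these counts were 34 and 76. For NS, which differs from all 3 other groups in cell type, the mean lay nearer to hNanog iPS for 188 of the 297 and 43 of the 124. Nanog at ILMN_1245732, Vim, Ak4, Tfap2a, Tfap2c and Notum were among the lower genes whose ES level lay nearer to mNanog iPS. Serpinf1, Col1a1, Hprt and Xlr4a lay nearer to hNanog iPS in ES. Of the higher genes, Eras, Gpc3 and Stac2 had ES levels nearer to hNanog iPS, and Lmo2, Zscan4c and Gm428 nearer to mNanog iPS.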

How the data were processed

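Total RNA of 12 samples was amplified, labelled with biotin and hybridised to Illumina bead arrays, per the labels' protocols. The authors deposited a mean bead signal per probe as linear intensity, named in the file headers as not normalized, with a detection p-value beside each signal, per the file headers. A processed table of the same arrays, deposited by the authors and taken here as log2 from its values, served as an alternative; the sources used here do not give its method. Gene names came from the platform annotation of the probes in that table.

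The function neqc (limma 3.58.1, R 4.3.3) was run on all 12 arrays together, with background estimated through the detection p-values, an offset of 16 and quantile normalization. A linear model of 4 group means was fitted to the 12 arrays with eBayes, p-values were adjusted over all 15124 probes of the rule (Benjamini-Hochberg, 0.05), and the contrast is hNanog iPS minus mNanog iPS. Precision is limited by having 3 arrays per group.

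Named genes were both Nanog probes, Pou5f1, Sox2, Klf4 and Myc; the 12 largest rises and 12 largest falls past the threshold without overlap, above background on every array of a group; and at most 4 called members of each of 34 lists. Snai1, Twist1, Sparc, Fbln1, Tpm2, Vim, Thy1, Col1a1, Ankrd1 and further list members given with a value were chosen after their values were seen. Members, lists and comparisons were chosen with earlier results of these data known. Each list gene took the probe with the highest iPS mean, and lists were described by counts with no test. Counts of list genes that rose, fell or did not pass hold at that probe, and other probes of a gene can differ. A list gene detected in a single iPS group entered the counts only through that group. Promoter sequences were taken from RefSeq, GRCm38.p6.

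Alternatives changed the background correction, normalization, probe filter, values, test, a block for replicate number or for array brightness, and left out each iPS array in turn; median scaling over the tested probes was added after the data were seen. In simulated data for this comparison, 87% of probes shifted by 1 log2 unit and 42% of those shifted by 0.5 passed, as did 10 of 14924 probes left as they were. The simulated noise was independent for each probe and array and left out the shared brightness of the real arrays, so these rates may not hold for them.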

Additional observations from a re-analysis of the deposited data

How the results depend on the processing

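The number of called probes, 2503 in all, ranged from 1765 to 2408 when each iPS array was left out in turn, with 772 to 1212 higher and 983 to 1196 lower. Under median scaling of each array, which moved the median of all tested probes to 0.294, 346 probes passed (156 higher, 190 lower, 190 of them 2-fold or more lower). In the dimmer arrays alone 659 passed (226 higher, 433 lower), where hNanog iPS has 1 array that was assumed to vary like the other groups. With array weights 4384 passed (2404 higher, 1980 lower). The count of 2-fold changes, 421, was 205 without background correction (41 higher, 164 lower), 255 with an offset of 50 (56 higher), 189 for probes detected on all 6 arrays (133 lower, 56 higher) and 103 in the authors' processed values (15 higher, 88 lower). The share of higher probes with ES nearer to hNanog iPS was 32.1% with an offset of 50 and 53.3% in the processed values, and that of lower probes was 75.9% for probes detected on all 6 arrays. The causes of these moves were not tested, except that probes required on all 6 arrays leave out genes at background in a group. Median scaling over the tested probes gave 1999 calls.

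Whether the replicate numbers pair the arrays could not be told. Deviations of same-numbered arrays correlated at -0.23, -0.136 and -0.518, but each such pair set a brighter array against a dimmer one. Pairs of like brightness across the iPS groups, all with unlike numbers, gave 0.207 to 0.386. With the replicate block 2110 probes passed (985 higher, 1125 lower). Of 2739 comparisons of 121 named probes with 23 settings, 2421 kept direction and side of the threshold, 313 lost the call, 1 gained it and 4 changed sign: Pcgf1 at 0.033 and Sox2 at 0.17 under median scaling, Sox2 at 0.024 in the brighter arrays and Pou5f1 at -0.011 in the dimmer arrays. The call was kept in every setting for 47 probes. Signal over background limits the lower bounds.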

Other observations

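The families below were chosen after their values were seen and are given as values. Over all tested probes, 7.97% were higher and 8.58% lower. Of 9 probes for Pramel genes, a large family expressed in germ cells and early embryos, 5 rose in hNanog iPS and 3 fell. Pramel16, Pramel20, Pramel31 and Pramel37 were detected on every hNanog iPS array and on no array of another group, at least 1.64-fold, 1.76-fold, 1.91-fold and 1.51-fold higher, and Pramel13 rose by 0.92. Apart from Pramel13, these entered the test only because hNanog iPS detected them, so 5 of 9 does not describe the family. Pramel14, Pramel30 and Pramel12 fell by 1.55, 1.45 and 0.46. All 5 tested probes of MHC class II genes, which present antigen in immune cells, fell: H2-Eb1 was at least 4.27-fold lower, H2-DMb2 at least 3.68-fold, H2-DMb1 fell by 1.87 and H2-DMa by 0.80 and 0.76. H2-Eb1 and H2-DMb2 entered the test only because mNanog iPS detected them. The 3 probes of the class I gene H2-D1 disagreed, with rises of 0.71 and 1.28 and a level at least 1.76-fold lower. The last of these was detected on all mNanog iPS arrays and no array of another group.

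Kit, the receptor of stem cell factor, rose by 1.08 and 1.25 at its probes, both groups below ES (12.34 and 8.06). The insulin-like growth factor binding protein Igfbp4 was at least 5.02-fold and 3.38-fold lower in hNanog iPS, while Igfbp2 rose by 0.91 and 0.61. The pentraxin Ptx3 was at least 4.19-fold and 3.72-fold lower, the chemokine Cxcl12 at least 3.82-fold and the aldo-keto reductase Akr1c18 at least 3.64-fold. Of 51 histone cluster probes, 11 fell and 2 rose (median -0.02), H1f2 by 0.88 and 0.70 at its probes. Of 256 probes for genes named Zfp, 31 rose and 11 fell (median 0.10). Over all tested probes, 7.97% were higher and 8.58% lower, or 16.5% in either direction, and the histone and Zfp counts are not read as family results.

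The largest change of all belonged to a probe unnamed here, ILMN_2923874, at 9.78, 10.15 and 10.20 in mNanog iPS and 4.33, 4.47 and 4.37 in hNanog iPS, at least 23.1-fold lower (adjusted p = 9.0e-10). It was also detected on every ES array (8.76) and on no NS array. The unnamed probe ILMN_2531895 was at least 3.72-fold higher and detected in hNanog iPS alone. Median changes by chromosome ranged from -0.022 to 0.082 over 20 chromosomes.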
